A study of Mus musculus with 29 samples.

Results

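Transcripts of 8 genes of tight and gap junctions, Cldn1, Cldn4, Cldn7, Ocln, Tjp1, Gjb2, Gjb6 and Gja1, were followed in cultured mouse keratinocytes with an inducible c-Fos transgene. Members were the array probes annotated with 1 of these symbols and detected, at a detection p below 0.01, on 2 or more of 29 arrays. Of the 25697 probes on the array 9 carried a member's symbol, none of them Gjb6, and 8 probes of 6 genes passed. Cldn7's single probe was detected on 0 of 29 arrays, and the next member up, Tjp1, on 13. Cldn1, Cldn4, Gja1 and 2 of the 3 Gjb2 probes were detected on all 29 arrays, the remaining Gjb2 probe on 27 and Ocln on 20.

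The cells were primary keratinocytes from the tail of C57BL/6 mice, all carrying c-FostetON, a construct switched on by doxycycline (Dox), and all grown at 32 °C in serum-free keratinocyte medium. RNA was taken 6, 12, 24, 48 and 72 h after Dox was added, and from untreated cultures at the same times. In order of time there were 3, 3, 3, 2 and 4 arrays with Dox, and 2, 2, 3, 3 and 4 untreated. Each 72 h group has a pair of arrays labelled with the letter C, counted as 1 replicate by their mean, which gives 3 replicates for these groups and 27 replicates in 10 groups. The labels give neither the animals behind each culture nor the promoter that drives the transgene's activator, and no Dox-treated cells without the transgene were analysed here, so Dox as a drug and c-Fos as its product cannot be told apart. Dox is labelled as 1 µg/ml in one field and per litre in another.

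Tight junctions seal the space between neighbouring epithelial cells near their upper edge. Claudins and occludin span the membrane and set which ions and molecules pass, and Tjp1 (ZO-1) ties them to actin beneath the membrane. In epidermis they form in the granular layer, and mice without Cldn1 die soon after birth of water loss through the skin. Gap junctions are built from connexins, whose channels join the cytoplasm of adjacent cells. Gja1 (connexin 43) is the main connexin of keratinocytes, while Gjb2 (connexin 26) is low in resting interfollicular epidermis and high in wounded or hyperproliferative skin. c-Fos pairs with Jun proteins to form AP-1, a transcription factor that binds the letters TGANTCA.

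The members' promoters were searched for those letters because the construct encodes an AP-1 subunit. RefSeq (GRCm38.p6) gave 10 promoters for the 8 genes, each running from 250 bases before the annotated start to 50 after it. TGANTCA, which reads alike on both strands, was found in 2 of the 10. Cldn4 held 2 copies, beginning at positions -240 and -158 from the start, and Gja1 held 1, beginning at -19. Of 32851 mouse promoters of this length 7.81% held at least 1 copy and 0.46% held 2 or more. The letters CAGGTG, called an E-box, were searched on both strands as well. They were found in at least 1 promoter of Cldn4, Cldn7, Ocln, Gjb2 and Gjb6, with 2 copies in Cldn4. Of all promoters 20.2% held at least 1 E-box and 2.88% held 2 or more. A match is a run of letters, not a shown binding site, and no binding was measured here. The promoters of Cldn4 and Gja1 are printed 5′ to 3′ on the gene's own strand, with the TGANTCA matches in capitals. Cldn4 lies on the minus strand at chr5:134946885-134947184 and Gja1 on the plus strand at chr10:56377050-56377349.
Cldn4: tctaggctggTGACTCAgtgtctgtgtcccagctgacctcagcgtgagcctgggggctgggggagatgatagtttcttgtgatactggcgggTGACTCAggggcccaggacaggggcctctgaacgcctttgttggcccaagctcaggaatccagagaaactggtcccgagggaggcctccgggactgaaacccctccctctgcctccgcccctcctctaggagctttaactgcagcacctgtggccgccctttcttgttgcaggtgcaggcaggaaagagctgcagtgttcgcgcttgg
Gja1: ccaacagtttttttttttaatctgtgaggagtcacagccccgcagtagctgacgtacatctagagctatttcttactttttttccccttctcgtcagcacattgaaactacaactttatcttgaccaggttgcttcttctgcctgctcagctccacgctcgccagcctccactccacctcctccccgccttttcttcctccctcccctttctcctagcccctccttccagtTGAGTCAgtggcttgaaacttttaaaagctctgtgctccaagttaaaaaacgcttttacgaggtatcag

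Several facts of the arrays touch the values that follow. Median signal per array ran from 54.5 to 74.5, with 33.4 to 37.8% of probes detected. The untreated 6 h arrays stood apart. Their median correlation with the other arrays was 0.952 and 0.953, against 0.968 to 0.984 for the rest. For Actb, one gene, the pair of probes was taken whose log2 difference ranged most over these same arrays. That difference was 3.96 to 4.59 on the untreated 6 h arrays and -4.03 to -3.44 on the Dox 6 h arrays. On the untreated 12 h arrays it was 1.10 to 1.63, on untreated 24 h replicate 1 it was 0.91, and on the remaining arrays it was negative. Its part in any result was not tested beyond the fit that holds it as a covariate. The authors' normalized log2 values fall into 4 sets of arrays that share a distribution, and they rise by 0.654 to 0.835 per log2 unit of the deposited signal, so differences on these scales cannot be compared in size. All 6 h, all 48 h and all 72 h arrays lie within a set each, while the 12 h and 24 h comparisons cross sets. The Fos probe read lower on the arrays labelled Dox, with log2 differences of -0.39 and -0.32 at 6 and 12 h (adjusted p = 0.105 and 0.453, limma) and of -0.76, -0.83 and -0.78 later (adjusted p = 0.00535, 0.00536 and 0.00163), so every direction here follows the labels. The sources used here do not place that probe on the construct, so it does not check the labels. Of 9 keratinocyte markers 8 were detected, among them Krt5, Krt14 and Trp63 on all 29 arrays. Of 7 fibroblast markers Thy1 was detected on 11 arrays, Col1a2 on 1 and the other 5, Col1a1, Col3a1, Pdgfra, Dcn and Lum, on 0. Of 6 immune markers H2-Ab1 was detected on 18 arrays, Cd52 on 1 and Ptprc, Cd207, Cd74 and Cd3e on 0. Of 4 endothelial markers Kdr was detected on 4 arrays and the rest on 0, as were the 3 Merkel cell markers. Thy1, the single fibroblast marker tested, had a signal of 40.4 to 54.6 on the untreated 6 h arrays and 19.1 to 34.8 on all others. It was lower with Dox at 6 h (-0.63, adjusted p = 0.0147, limma) and in the mean over 5 times (-0.23, adjusted p = 0.0457), and its part in any result was not tested. The summed signal of the 8 keratinocyte markers was 34545 to 35595 on the untreated 6 h arrays and 38429 to 45224 on all others. Of 6 melanocyte markers 4 were detected, with a summed signal of 111 to 148 over all groups, and none was called at any time.

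Levels are log2 normalized signals, adjusted p-values are limma's with Benjamini-Hochberg adjustment over all 11794 detected probes of a comparison, and a probe was called when its adjusted p was below 0.05. In these bulk samples fewer cells of a type and less RNA per cell cannot be told apart. The labels do not say whether replicates came from separate cultures or animals, so the spread behind each p-value may be technical.

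Cldn4, a claudin of the upper living epidermal layers that acts as a chloride pore or a sodium barrier in kidney epithelium, was lower with Dox at 48 and 72 h. At 48 h the untreated arrays read 10.82, 10.89 and 10.63 and the Dox arrays 9.93 and 9.86. Every Dox array lay below every untreated array, and the Dox group was the lowest of all 10 for this gene. The log2 difference was -0.89 (SE 0.12, adjusted p = 3.15e-05, limma), a 1.85-fold lower level. Cldn4 was the only call among the 8 member probes at this time, against 2.33% of all probes tested, and 0.509% of all probes had a larger difference in size.

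At 72 h the untreated arrays of Cldn4 read 10.988, 11.031, 11.003 and 10.782, and the Dox arrays 10.68, 10.42, 10.60 and 10.50. The groups again did not overlap. The difference was -0.42 (SE 0.11, adjusted p = 0.0171, limma), 1.34-fold lower, and Cldn4 was again the single call among 8 probes, where 5.62% of all probes were called. The call ended without untreated replicate 1 (-0.41, adjusted p = 0.0645), without untreated replicate 2 (-0.39, 0.0855) and without Dox replicate 2 (-0.36, 0.114). It also ended on the authors' normalized values, where the difference was -0.42 and the adjusted p 0.0635.

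Earlier the Cldn4 groups lay close together. At 24 h the untreated arrays read 10.92, 10.80 and 11.02 and the Dox arrays 10.48, 10.53 and 10.88, which overlap, and the difference of -0.29 (95% interval -0.51 to -0.06) was not called (adjusted p = 0.168, limma). The Dox array at 24 h that shares a set with the untreated arrays differed from their mean by -0.44, and those of the next set differed by -0.39 and -0.04. The call was made on the authors' values (-0.58, adjusted p = 0.00929) and with median scaling (-0.60, adjusted p = 0.00553), the latter while the median of all probes shifted by -0.23. At 12 h the values were 11.48 and 11.52 untreated and 11.28, 11.34 and 11.10 with Dox, all below, and the difference of -0.26 was not called (adjusted p = 0.347) and was 0.02 on the authors' values. At 6 h they were 11.52 and 11.51 untreated and 11.62, 11.60 and 11.60 with Dox, a difference of 0.09 (adjusted p = 0.63) that was -0.24 with median scaling, called in neither.

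Averaged over 24, 48 and 72 h, Cldn4 was lower with Dox by 1.45-fold, a difference of -0.53 (SE 0.06, adjusted p = 1.34e-06, limma). Over all 5 times it was -0.35 (SE 0.05, adjusted p = 1.75e-05), and with the 6 h arrays left out -0.46. The Dox difference of Cldn4 depended on time (F = 8.62, adjusted p = 0.00296), but not past the threshold with the 6 h arrays left out (adjusted p = 0.156), with the Actb probe difference as a covariate (0.153) or with median scaling (0.189). The difference at 48 h was not shown to be larger than at 72 h (by -0.47, SE 0.16, adjusted p = 0.561) or at 24 h (by -0.60, adjusted p = 0.23), comparisons chosen after the values were seen.

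Over culture time Cldn4 fell in Dox cultures, while its fall in untreated cultures depended on the normalization. Untreated cultures went from 11.51 ± 0.004 (SD, n = 2) after 6 h to 10.97 ± 0.07 (SD, n = 3) after 72 h, and Dox cultures from 11.61 ± 0.01 (SD, n = 3) to 10.55 ± 0.13 (SD, n = 3). The differences were -0.54 (adjusted p = 0.000599, limma) and -1.06 (adjusted p = 1.67e-08), the latter 2.08-fold lower. Arrays of 6 and 72 h belong to different sets, so time and array set cannot be told apart, and on the authors' values, which share a distribution within each set, the untreated difference was 0.13 (adjusted p = 0.399) and the Dox difference -0.33 (adjusted p = 0.0179), which was -0.66 with median scaling. Its group means spanned 1.71, the widest range of the 8 probes. In the order of the 10 means the 4 groups of 6 and 12 h came first. Of the 9 neighbouring pairs 5 overlapped, and the lowest group, Dox at 48 h, did not overlap with the next, Dox at 72 h.

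**Figure D1:**
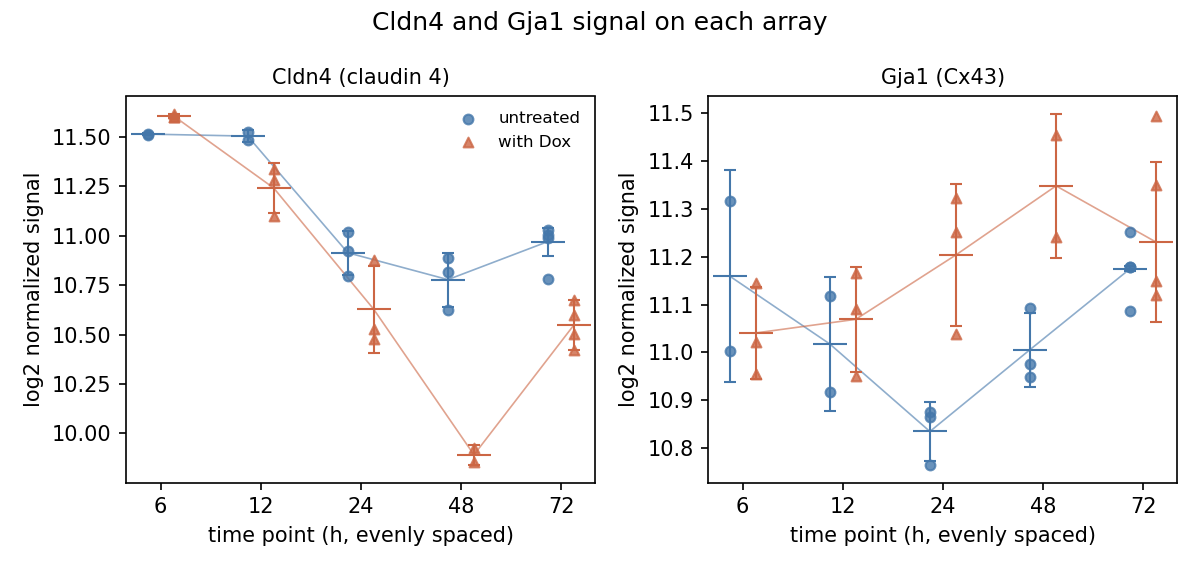
Log2 normalized signal of Cldn4 and Gja1 (vertical axes, different ranges) at each time point in h, evenly spaced, on arrays of untreated cultures (circles) and cultures with Dox (triangles). Points are arrays, wide bars group means over replicates and error bars 1 SD; at 48 h both Dox arrays of Cldn4, 9.93 and 9.86, lie below the 3 untreated arrays, while both Dox arrays of Gja1 lie above theirs.

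Cldn1, the claudin that the epidermal barrier cannot do without, was set apart by a single group. The untreated 6 h arrays read 8.26 and 8.29, and the Dox 6 h arrays 9.30, 9.08 and 9.16. On all other arrays the value lay between 8.93 and 9.49, so the untreated 6 h arrays were low and the remaining 9 groups overlapped with their neighbours. The difference at 6 h was 0.91 (SE 0.14, adjusted p = 1.59e-05, limma). It is read beside a background of 25.4% of all probes called at 6 h. The Actb pair, picked for its range over these arrays, also separates the untreated from the Dox arrays at 6 h. On the untreated 12 h arrays the Actb difference was smaller, 1.10 to 1.63, and Cldn1 read 9.24 and 9.29. The part of the Actb pair in the Cldn1 difference was not tested beyond the covariate fit. Over the 10 other settings the adjusted p of Cldn1 at 6 h was at most 0.0343.

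From 12 h on the Cldn1 differences were -0.08, -0.13, -0.01 and -0.07, with adjusted p from 0.674 to 0.985 (limma), and the groups overlapped at each of these times. At 24 h the difference was called with median scaling (-0.46, adjusted p = 0.042) and was -0.39 on the authors' values (adjusted p = 0.0571), where the 12 h difference was 0.24 (adjusted p = 0.255). The 95% interval at 72 h ran from -0.32 to 0.18. The F test for time dependence gave 10.8 (adjusted p = 0.000816) and, with the 6 h arrays left out, 0.117 (adjusted p = 0.979). Untreated Cldn1 rose from 8.27 ± 0.02 (SD, n = 2) after 6 h to 9.17 ± 0.08 (SD, n = 3) after 72 h, by 0.90 (adjusted p = 5.72e-06). With Dox it was 9.18 ± 0.11 (SD, n = 3) at 6 h and 9.09 ± 0.05 (SD, n = 3) at 72 h, a difference of -0.09 (adjusted p = 0.622). This direction depended on the normalization: the Dox difference was 0.61 and called on the authors' values (adjusted p = 0.00035), and 0.39 and called with median scaling (adjusted p = 0.0462). From 24 to 72 h with Dox it was called on the authors' values as well (0.38, adjusted p = 0.0352).

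Ocln, occludin, and Tjp1, the ZO-1 scaffold, were near the detection limit. Neither was called in any comparison of the main fit, which used quantile normalization and all 27 replicates. Ocln ran from 4.44 to 5.39 over all arrays and Tjp1 from 4.36 to 5.33. Their group means spanned 0.46 and 0.47, and every neighbouring pair of groups overlapped. At 12 h Ocln was detected on 3 of 3 Dox arrays and 0 of 2 untreated arrays. Its Dox mean lay 1.17-fold above the detection limit of the untreated arrays, a figure that allows for no error. The tested difference was 0.35 (95% interval 0.03 to 0.67) and was not called (adjusted p = 0.321, limma). Tjp1 was detected on no array of either treatment at 12 h. At the other 4 times the Ocln differences lay between -0.28 and 0.21 and those of Tjp1 between -0.18 and 0.13. From 6 to 72 h with Dox, Ocln differed by -0.34 (adjusted p = 0.0592) and Tjp1 by 0.37 (adjusted p = 0.0685). Other settings called both. Tjp1 was called higher on the authors' values in Dox cultures (0.25, adjusted p = 0.000111) and in untreated cultures (0.20, adjusted p = 0.0022), with median scaling in Dox cultures (0.50, adjusted p = 0.00702) and without Dox 6 h replicate 1 (0.55, adjusted p = 0.00901). Ocln was called lower with the letter as a block (-0.34, adjusted p = 0.0495) and without Dox 72 h replicate 3 (-0.41, adjusted p = 0.0468), Dox 24 h replicate 1 (0.0391) or untreated 48 h replicate 2 (0.0448), but was 0.09 on the authors' values (adjusted p = 0.0665).

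**Figure D2:**
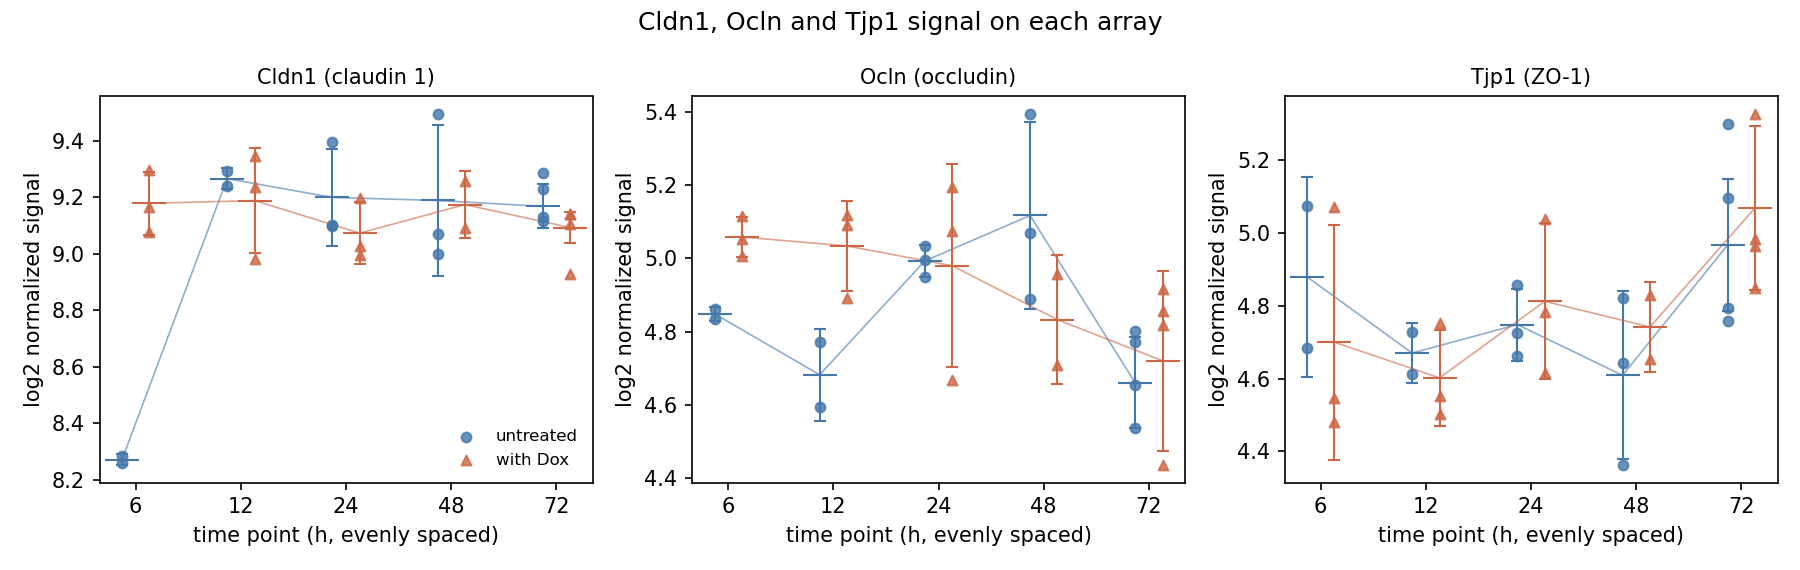
Log2 normalized signal of Cldn1, Ocln and Tjp1 (vertical axes, different ranges) at each time point in h, evenly spaced, drawn as points for arrays with means over replicates and error bars of 1 SD. The 2 untreated 6 h arrays of Cldn1, 8.26 and 8.29, lie below all others, and the groups of Ocln and Tjp1 overlap at most times.

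Gja1, connexin 43, was among the brightest members. In the main fit it was called slightly higher with Dox in the mean over 24, 48 and 72 h, but at no single time. That call depended on the settings. At 24 h the untreated arrays read 10.76, 10.88 and 10.86 and the Dox arrays 11.04, 11.25 and 11.32. At 48 h they read 10.95, 10.98 and 11.09 untreated and 11.24 and 11.45 with Dox. At both times every Dox array lay above every untreated array. The differences were 0.37 (SE 0.11, adjusted p = 0.0712, limma) and 0.34 (adjusted p = 0.194), and neither was called. At 24 h the Dox array of the untreated arrays' own set lay 0.20 above their mean, and those of the next set 0.42 and 0.49. Without that first array the 24 h difference was 0.45 and called (adjusted p = 0.0378), and without background correction 0.36 (adjusted p = 0.0251), while on the authors' values it was 0.04 (adjusted p = 0.796).

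At 72 h Gja1 read 11.18, 11.18, 11.25 and 11.09 untreated and 11.12, 11.15, 11.35 and 11.49 with Dox. These groups overlapped, with a difference of 0.06 (95% interval -0.17 to 0.28, adjusted p = 0.892, limma). Averaged over 24, 48 and 72 h the difference was 0.26 (SE 0.07, adjusted p = 0.0123), a 1.19-fold higher level. This call ended without Dox 48 h replicate 2 (0.22, adjusted p = 0.0719), with the array set as a block (0.20, 0.118), on the authors' values (0.15, 0.205) and with median scaling (0.17, 0.304). Over all 5 times the difference was 0.14 (adjusted p = 0.0631), and 0.20 (adjusted p = 0.0225) with the 6 h arrays left out.

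Untreated Gja1 rose from 10.84 ± 0.06 (SD, n = 3) after 24 h to 11.17 ± 0.005 (SD, n = 3) after 72 h, by 0.34 (adjusted p = 0.0332, limma), as the single call among 8 probes where 17.1% of all probes were called. The call ended without any 1 of the 6 replicates compared (adjusted p from 0.055 to 0.12), with differences of 0.30 to 0.36, and was made on the authors' values (0.42, adjusted p = 0.0106). With Dox the difference from 24 to 72 h was 0.03, but 0.45 and called on the authors' values (adjusted p = 0.00479). From 6 to 72 h Gja1 differed by 0.02 untreated and by 0.19 with Dox, neither called. On the authors' values these were 0.65 (adjusted p = 0.000116) and 0.92 (adjusted p = 7.12e-07), both called, and with median scaling the Dox difference was 0.62 and called (adjusted p = 0.0015). At 6 h Gja1 was called lower with Dox with median scaling alone among the settings (-0.48, adjusted p = 0.0341). The Gja1 group means spanned 0.51, with 8 of 9 neighbouring pairs overlapping.

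Gjb2, connexin 26, was measured by 3 probes, numbered here from the brightest to the dimmest, and they disagreed at 6 h. Probe 1 read 7.76 and 8.18 untreated and 7.60, 7.50 and 7.65 with Dox at 6 h. Probe 2 read 6.67 and 6.50 against 6.40, 6.40 and 6.76, and probe 3 read 5.14 and 4.78 against 6.03, 6.28 and 6.25. Probe 3 alone was higher with Dox, by 1.23 (SE 0.19, adjusted p = 2.43e-05, limma), while probe 1 differed by -0.39 (adjusted p = 0.177) and probe 2 by -0.06 (adjusted p = 0.848). With the Actb probe difference as a covariate the probe 3 difference was 0.81 and not called (adjusted p = 0.303), and on the authors' values it was 0.27 and called (adjusted p = 0.0389). With median scaling probe 1 was called lower (-0.69, adjusted p = 0.0203). Probe 3 was detected on 1 of the 2 untreated 6 h arrays. The sources used here do not place the 3 probes on the transcript.

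At 48 h every Dox array lay below every untreated array for all 3 Gjb2 probes, and none was called. Probe 1 read 7.02, 7.23 and 7.02 untreated and 6.91 and 6.56 with Dox. Probe 2 read 6.16, 6.03 and 6.28 against 5.54 and 5.76, and probe 3 read 5.88, 5.06 and 5.57 against 4.96 and 4.71. The differences were -0.35 (adjusted p = 0.539, limma), -0.50 (0.243) and -0.67 (0.0617) in that order. Groups of 2 and 3 arrays failed to overlap at 48 h for 5 of the 8 member probes, against 26% of all probes. Probe 3 was called without untreated 48 h replicate 2 (-0.89, adjusted p = 0.00539) and without Dox 12 h replicate 1, which changes only the spread (adjusted p = 0.0464).

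At 72 h probe 1 read 7.15, 7.10, 6.90 and 7.13 untreated and 6.47, 6.37, 6.81 and 6.86 with Dox. The groups did not overlap, and the difference of -0.53 was not called (adjusted p = 0.101, limma). It was called with array weights (adjusted p = 0.0373), with the array set as a block (0.0189) and without Dox 24 h replicate 1 (0.0317). Probes 2 and 3 differed by -0.25 each, with overlapping groups. With quantile normalization the 3 probes differed at 24 h by 0.03, 0.22 and -0.24 and at 12 h by 0.02, -0.02 and 0.19, all with overlapping groups. The 24 h sign was not stable for probes 1 and 2. A block on array sets gave -0.54 and -0.07, and median scaling -0.29 and -0.05, called in neither setting.

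Averaged over 24, 48 and 72 h, probe 3 was lower with Dox, by -0.39 on the log2 scale (SE 0.10, adjusted p = 0.0139, limma), and probes 1 and 2 differed by -0.28 (adjusted p = 0.121) and -0.18 (0.365). The probe 3 call ended without Dox 48 h replicate 2 (-0.35, adjusted p = 0.0696), with the array set as a block (-0.36, 0.0637) and on the authors' values (-0.08, adjusted p = 0.324). With the array set as a block probe 1 was called instead (-0.47, adjusted p = 0.00163). The F test for time dependence called probe 3 (F = 14.9, adjusted p = 0.000109), but not with the 6 h arrays left out (adjusted p = 0.326) or the Actb covariate (0.234). It did not call probe 1 or probe 2 (adjusted p = 0.352 and 0.269).

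With quantile normalization all 3 Gjb2 probes fell between 6 and 72 h in Dox cultures, and on the authors' values none was called. Probe 1 went from 7.58 ± 0.08 to 6.56 ± 0.25, probe 2 from 6.52 ± 0.20 to 5.57 ± 0.44 and probe 3 from 6.19 ± 0.14 to 5.10 ± 0.14 (SD, n = 3 each). The differences were -1.02 (adjusted p = 8.56e-05, limma), -0.95 (9.85e-05) and -1.09 (1.4e-05), which are 2.03-fold, 1.94-fold and 2.12-fold lower levels. In untreated cultures probe 1 differed by -0.88 (adjusted p = 0.000988) and probe 2 by -0.77 (adjusted p = 0.00197), while probe 3 differed by 0.39 (adjusted p = 0.102). On the authors' values the Dox differences were -0.08, -0.01 and -0.05. The untreated differences there were -0.03 (adjusted p = 0.863), 0.057 (0.537) and 0.30 (0.0019), the last of them called, and probe 3 was also called with median scaling (0.65, adjusted p = 0.0134). The Actb covariate ended both untreated calls, at -0.82 for probe 1 (adjusted p = 0.109) and -0.80 for probe 2 (adjusted p = 0.0969). From 24 to 72 h with Dox, probe 2 fell by 0.59 (adjusted p = 0.0221), the single call among 8 probes where 14% of all probes were called. That call ended without Dox 24 h replicate 2 (-0.48, adjusted p = 0.119), Dox 24 h replicate 3 (-0.55, 0.0719), Dox 72 h replicate 1 (-0.52, 0.0946) or Dox 72 h replicate 2 (-0.42, 0.166), on the authors' values (-0.10, 0.335) and with median scaling (-0.30, 0.242), and probe 1 differed by -0.53 (0.0572).

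**Figure D3:**
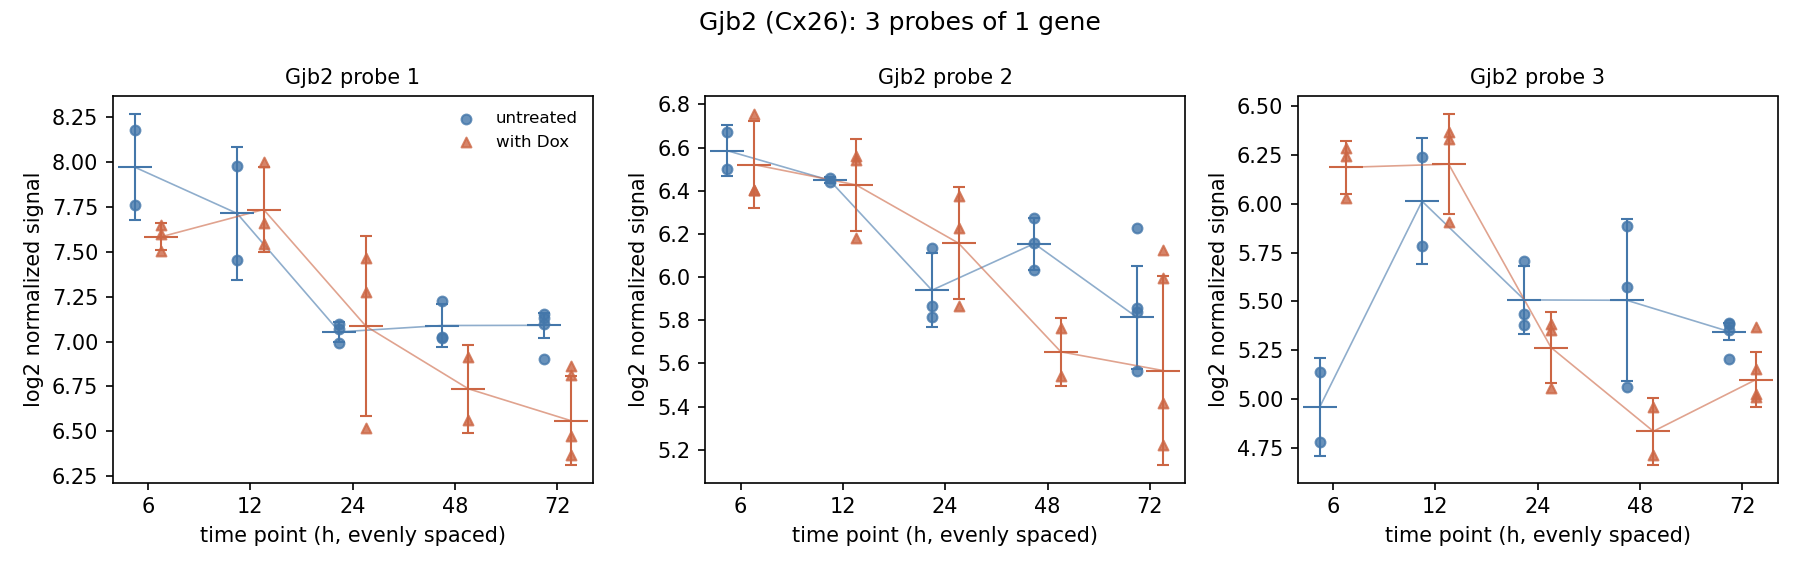
Log2 normalized signal of the 3 Gjb2 probes (vertical axes, different ranges) at each time point in h, evenly spaced, on untreated arrays (circles) and arrays with Dox (triangles), with means over replicates and error bars of 1 SD. At 6 h the Dox arrays lie above the untreated arrays for probe 3 and below them for probe 1, and at 48 h the Dox arrays lie below the untreated arrays for all 3 probes.

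Of the 8 member probes Dox against untreated called 2, 0, 0, 1 and 1 in order of time, where 25.4%, 1.62%, 2.58%, 2.33% and 5.62% of all probes were called. The arrays of both treatments did not overlap for 5, 2, 1, 5 and 2 member probes, against 49.2%, 27.2%, 20.5%, 26% and 15% of all probes. The 2 calls at 6 h were both higher with Dox, the calls at 48 and 72 h were both lower, and limma gave 2 probes at 12 h and 2 at 24 h an unadjusted p below 0.05. The mean over 5 times called 1 probe (19.9% of all probes) and the mean over 24, 48 and 72 h called 3 (8.82%). The test of time dependence called 3 (15.5%). No member's Dox difference at 72 h differed from that at 24 h past the threshold (1.29% of all probes called, 1 member with an unadjusted p below 0.05). The median member difference was 0.01, -0.0002, 0.01, -0.32 and -0.16 in order of time. Over all probes the medians were -0.05, -0.01, -0.01, -0.002 and 0.0001. These are medians over probes, not genes: the 3 Gjb2 probes, all lower at 48 and 72 h, make up 3 of the 8 values. Members that come from 1 gene, the 3 Gjb2 probes, are not separate evidence. Over culture time 4 of 8 were called in untreated cultures from 6 to 72 h (44.5% of all probes) and 4 of 8 in Dox cultures (36%), so these shares lie near the background.

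**Figure D4:**
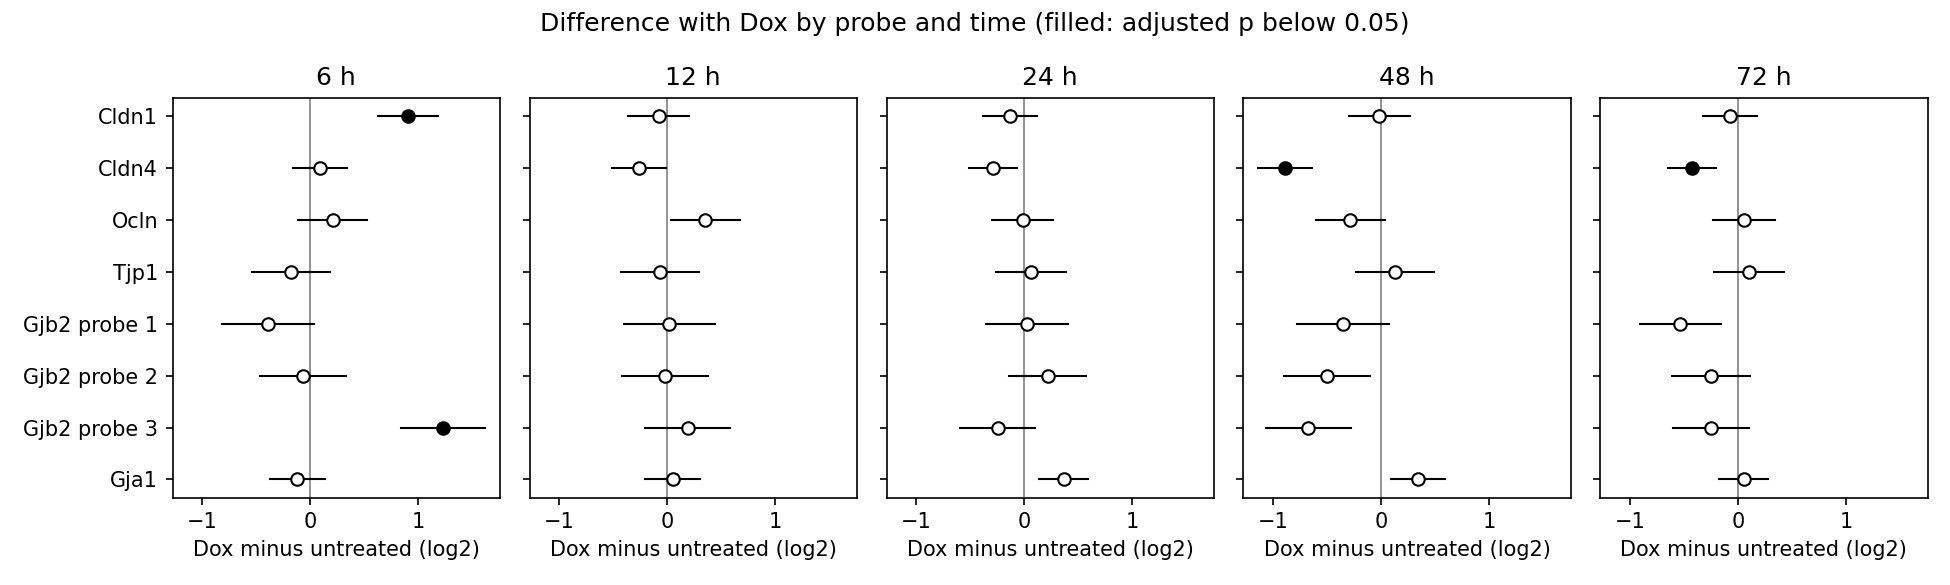
Difference in log2 normalized signal, Dox minus untreated (horizontal axis), of each of the 8 member probes at 6, 12, 24, 48 and 72 h. Points are estimates, lines 95% intervals and filled points have an adjusted p below 0.05; Cldn1 and Gjb2 probe 3 are filled at 6 h and Cldn4 at 48 and 72 h.

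Many other junction genes were not detected. Each gene of the lists that follow was counted by its brightest probe. Differences from 6 to 72 h in these lists are given with quantile normalization alone. They compare arrays of different sets, so time and array set cannot be told apart. Of 39 other claudin and tight junction genes listed 32 had a probe and 14 were measured. Calls at 12, 24 and 48 h numbered 0 (limma, with an unadjusted p below 0.05 for 0, 3 and 2 of them). At 6 h, where 25.4% of all probes were called, Lsr, a protein of tricellular contacts, was higher by 1.93 (adjusted p = 7.05e-08). Patj, a scaffold of the Crumbs polarity complex, was higher by 1.2 (0.00169). Mpdz, a multi-PDZ scaffold, was higher by 0.67 (0.00286), beside the untreated 6 h arrays that stood apart. Further probes disagreed: one of Patj was called lower (-0.43, adjusted p = 0.0458), its last differed by -0.08 (0.81), and the other Mpdz probe by 0.15 (0.501). At 72 h Patj differed by -1.56 (adjusted p = 8.92e-05), while its other probes differed by 0.14 and 0.28 and were not called. From 6 to 72 h 3 of the 14 rose and 2 fell in untreated cultures, where 44.5% of all probes were called, and 1 rose and 2 fell in Dox cultures (36%). Cldn23, a claudin, rose in untreated cultures by 0.93 (adjusted p = 0.000115) and in Dox cultures by 0.75 (adjusted p = 0.000519). Of 20 other connexins and pannexins 15 had a probe and 1 was measured, Panx1, a channel protein, which was called in no comparison.

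Of 13 adherens junction genes 11 were measured. With Dox Cdh3, P-cadherin of basal keratinocytes, was lower at 6 h (-0.46, adjusted p = 0.00726, limma) and at 12 h (-0.70, adjusted p = 0.00424), and Ajuba, a LIM protein of cell contacts, was higher at 6 h (0.69, adjusted p = 0.00134), as was its other probe (0.99, adjusted p = 3.38e-05). The 3 further Cdh3 probes were called lower at 6 h, by -0.71, -0.37 and -0.67, and at 12 h one of them was (-1.34, adjusted p = 0.00494). At 24, 48 and 72 h none of the 11 was called (limma, unadjusted p below 0.05 for 2, 3 and 2). In the mean over 24, 48 and 72 h Nectin2, a cell adhesion molecule, was lower (-0.37, adjusted p = 0.00763), while its other probes differed by -0.12 and -0.13 and were not called.

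Of 14 listed transcription factors that act on junction or epidermal genes 10 were measured. Klf4, needed for the epidermal barrier in mice, was higher with Dox at 72 h by 1.08 (adjusted p = 0.00487, limma), and its other probes by 0.98 (0.016) and 0.90 (0.00223). At 6 h Ovol1, a zinc finger factor of epidermal differentiation, was lower (-0.66, adjusted p = 0.000287) and Klf5, a factor of proliferating epithelial cells, higher (0.52, adjusted p = 0.0127). Elf3, an epithelial ETS factor, was called at 24 h (0.44, adjusted p = 0.0329), and its other probes differed by -0.26 and -0.17. At 48 h none of the 10 was called (unadjusted p below 0.05 for 1). In the mean over 24, 48 and 72 h, where 8.82% of all probes were called, 1 of the 10 was higher and 1 lower. Klf4 was higher (0.48, adjusted p = 0.0366), and its other probes differed by 0.44 and 0.39 (0.0703 and 0.0235). Ovol1 was lower (-0.31, adjusted p = 0.0029). From 6 to 72 h, across array sets, 4 of the 10 fell in Dox cultures, where 36% of all probes were called. In untreated cultures 3 of the 10 fell (44.5%). The Dox differences were -2.43 for Ovol1 (adjusted p = 5.86e-15), -1.52 for Grhl3, a grainyhead factor of the barrier (1.24e-07), -0.85 for Grhl1 of the same family (0.000234) and -1.12 for Klf4 (0.00063), while the other Grhl1 probe differed by -0.25 (0.206). The untreated differences were -2.85 for Ovol1 (adjusted p = 4.63e-15), -2.43 for Klf4 (4.22e-08) and -1.40 for Grhl3 (1.67e-06).

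Of 12 epidermal differentiation genes 7 were measured. At 6, 12, 24 and 48 h none was called by its brightest probe (limma, unadjusted p below 0.05 for 0, 0, 1 and 3). The other probe of Sbsn, a gene of suprabasal keratinocytes, was called lower at 48 h (-0.69, adjusted p = 0.0226) and in the mean over 24, 48 and 72 h (-0.35, adjusted p = 0.0144). Tgm1, the transglutaminase that cross-links the cornified envelope, was lower with Dox at 72 h (-0.71, adjusted p = 0.00121). In the mean over 24, 48 and 72 h Tgm1 (-0.51, adjusted p = 8.51e-05) and Ivl, involucrin (-0.40, adjusted p = 0.0305), were both lower, beside Cldn4. For that mean 8.82% of all probes were called. From 6 to 72 h, across array sets, 4 of the 7 fell in Dox cultures, where 36% of all probes were called. The differences were -1.80 for Krtdap, -1.33 for Sbsn, -0.93 for Tgm1 and -0.76 for Krt10. In untreated cultures 3 of the 7 fell (44.5% of all probes called), with -1.60 for Krtdap, -1.22 for Sbsn and -0.66 for Krt10. Krtdap and Krt10 also mark suprabasal keratinocytes. Of the 8 keratinocyte markers measured, Dox against untreated called 1, 0 and 2 at 24, 48 and 72 h. Over all probes 2.58%, 2.33% and 5.62% were called. Itga6, a basal integrin, was higher with Dox at 24 h (0.58) and 72 h (0.89), and Trp63 at 72 h (0.56). The others, Krt5 and Krt14 among them, were not called at these times. At 6 h, where 25.4% of all probes were called, Krt5 was higher with Dox (0.77, adjusted p = 0.000385, limma). In the mean over 24, 48 and 72 h Itga6 (0.68), Trp63 (0.42) and Itgb4 (0.24, adjusted p = 0.0117) were called higher. The part of these calls in the Cldn4 difference was not tested.

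The genes whose 10 group means followed those of Cldn4 most closely were Socs3 (Pearson r = 0.97), Txlng (0.95) and Slc40a1 (0.95). For the brightest Gjb2 probe they were Gdpd1 (0.98), Tmc6 (0.98) and Vav3 (0.97). These correlations over 10 group means describe a pattern that culture time, array set and treatment share, and carry no test.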

How the data were processed

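Expression was measured on 29 Illumina bead arrays. The intensity values were deposited without normalization, per the file headers, each with a detection p-value from the authors' same deposited table. A second table holds log2 values that the authors deposited after a normalization not given in the sources used here. Signals were background corrected (offset 16, background from the detection p-values) and quantile normalized with limma 3.58.1 in R 4.3.3, and 11794 probes detected at p below 0.01 on at least 2 arrays were kept. A single limma fit held 10 group means over 27 replicates, with 17 residual degrees of freedom. Adjusted p-values are Benjamini-Hochberg over kept probes, and calls used 0.05 with no minimum fold. Intervals are 95%. Array sets were read from the authors' values, which share a distribution within a set. The group sizes of 2 or 3 replicates limit precision.

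Members, lists and tests were chosen with earlier results of these data known. Named list genes are up to 4 per list and comparison with the smallest adjusted p among called genes, counted by the brightest probe; likeness is the 3 highest correlations for members ranging over at least 1. The fit was tested on simulated arrays. For Dox against untreated in order of time, it called 96, 91, 98, 96 and 98% of simulated log2 differences of 1. Of simulated differences of 0.5 it called 32, 43, 51, 36 and 52%, so differences of that size can go uncalled. Promoters come from RefSeq. The letters A, B and C, whose meaning the labels do not give, were not used as pairs in the main fit. Of 12 same-letter pairs 1 had a deviation correlation over 0.1 (range -0.05 to 0.15). Such a correlation over all kept probes does not exclude a pairing. Alternatives covered background, normalization, filter, array weights, blocks, the Actb covariate and leaving out each replicate; leaving out the 6 h arrays was added after seeing the data.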

Additional observations from a re-analysis of the deposited data

Results flagged for a closer look

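The Dox difference was not the same at all times for 3 member probes, by limma's F test of whether the 4 later differences equal the 6 h one (2 or 3 replicates a group). F was 10.8 for Cldn1 (adjusted p = 0.000816), 8.62 for Cldn4 (adjusted p = 0.00296) and 14.9 for Gjb2 probe 3 (adjusted p = 0.000109). For Cldn1 and Gjb2 probe 3 the difference at 6 h was 0.91 and 1.23 and the later ones lay between -0.13 and -0.01 and between -0.67 and 0.19. With the 6 h arrays left out F was 0.117, 5.36 and 3.33 and none of the 3 was called (adjusted p = 0.979, 0.156 and 0.326).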

How the results depend on the processing

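The Cldn4 difference at 48 h was called in all 11 other settings and all 27 fits that left out a replicate, with values from -0.90 to -0.78 and from -0.96 to -0.83. Calls among the 8 member probes moved as follows. Median scaling gave 4 at 6 h, 2 at 24 h, 2 for the mean over 5 times, 7 for Dox 72 h minus 6 h, and 0 for both comparisons of 72 with 24 h; it shifted the median of all probes by -0.16 at 6 h, -0.23 at 24 h and 0.29 for Dox 72 h minus 6 h. The authors' values gave 1 at 24 h, 0 at 72 h, 1 for the mean over 24, 48 and 72 h and 2 for Dox 72 h minus 24 h. No background correction gave 1 at 24 h and 2 for the mean over 5 times, which was also 2 with detection on at least 6 arrays, letter C arrays kept separate, array weights, the array set as a block or the 6 h arrays left out. The Actb covariate gave 1 at 6 h, 1 for time dependence and 2 for untreated 72 h minus 6 h, and leaving out 6 h gave 0 for time dependence. Array weights and the set block each gave 2 at 72 h. Dox 72 h minus 24 h gave 2 with array weights, and 0 with no filter or separate letter C arrays. With the letter as a replicate block the count was 2 for Dox 72 h minus 24 h. Elsewhere the count moved by at most 1.5 times. An unmoved count could hold other probes. On the authors' values untreated 72 h minus 6 h called Cldn1, Tjp1, Gjb2 probe 3 and Gja1. Dox 72 h minus 6 h there called Cldn1, Cldn4, Tjp1 and Gja1. Of 1000 member differences under the settings that left out no replicate, 58 had the opposite sign, 20 of them on the authors' values and 12 with median scaling; 54 of the 58 were called neither way. In the 4 that were called in 1 of the 2 fits, untreated 72 h minus 6 h was 0.13 for Cldn4 and 0.057 for Gjb2 probe 2 on the authors' values, and Dox 72 h minus 6 h was 0.61 for Cldn1 on the authors' values and 0.39 with median scaling. The cause was not tested. Of 2592 differences with a replicate left out 57 turned, none of them called in either fit. Leaving out each replicate gave 0 to 1 calls at 24 h, 1 to 2 at 48 h, 0 to 2 at 72 h, 1 to 3 for the mean over 5 times, 1 to 4 for the mean over 24, 48 and 72 h, 3 to 4 for time dependence, 0 to 1 for untreated 72 h minus 24 h, 4 to 5 for Dox 72 h minus 6 h and 0 to 2 for Dox 72 h minus 24 h. The set block could not be estimated for the comparisons between times. Signal near the background limits Ocln, Tjp1 and Cldn7.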
